A study of Mus musculus with 6 samples.

Results

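Genes of the lysosome were examined in macrophages sorted from Day 3 skin wounds of young and aged mice. The genes were listed by symbol with no threshold on their values, although earlier results of these data were known when the list was made. They comprise 33 listed symbols, and every gene of the table whose symbol starts with Atp6v or Atp6ap, which added 22. All 55 were among the 15168 genes of the table. They were read as 22 hydrolases, 2 lumenal cofactors, 6 membrane proteins, 3 transcription factors, 20 genes of the V-ATPase and 2 pseudogenes of a V-ATPase subunit. Of the 55, 52 passed the filter on low counts and were tested among 11878 genes. Atp6v0e2, Atp6v1c2 and the pseudogene Atp6v0c-ps1 did not pass.

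Wild-type female mice of the strain C57BL6/J, aged 12 weeks (young) or 24 months (aged), received full-thickness wounds on the back, and macrophages were sorted at day 3 as CD45+CD11b+F4/80+CD64+ cells. Each age had 3 samples, named by set A, B or C. Ly6G, a neutrophil surface protein, was not among the proteins used for the sort. Messenger RNA was amplified with a low-input kit and sequenced, with 15270106 to 17927485 expected counts per sample. Levels are given as CPM, which divides counts by the scaled library size, where 1 count was worth 0.0553 to 0.0701 CPM. The labels do not say whether each sample was a separate animal, so the p-values measure the spread between these samples, which may be in part technical. Genes were called where the adjusted p-value was under 0.05 (edgeR quasi-likelihood test, Benjamini-Hochberg adjustment over all tested genes), and a log2 fold change below 0 means lower in aged samples.

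Lysosomes are acidic organelles in which macrophages break down what they engulf, including dead cells, matrix and microbes in a wound. Soluble hydrolases cut sugars, sulfates, lipids, peptides and phosphates in the lumen, some of them with the help of small cofactor proteins. The V-ATPase is a rotary proton pump that acidifies the lumen: its V1 sector in the cytosol splits ATP, and its V0 sector in the membrane carries the protons. Heavily glycosylated membrane proteins line the organelle, and channels and transporters move ions, lipids and breakdown products across it. The related transcription factors TFEB, TFE3 and MITF bind a short palindromic element, the E-box of the CLEAR motif, in front of many lysosomal genes.

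RefSeq promoter windows, from 250 bases before to 50 bases after the start of a gene (GRCm38.p6), were at hand for 45 of the 55 genes and were searched on both strands for the palindrome CACGTG and for its longer form TCACGTGA, which contains it. CACGTG was present in 14 of the 45 windows (31.1%), against 8.09% of the windows of all 27025 genes and 12.2% of those of the tested genes. TCACGTGA was present in 7 of the 45 (15.6%), against 1.12% of all genes and 2.32% of the tested genes. The shorter form was in 7 of 21 hydrolase windows, 3 of 5 membrane protein windows and 4 of 14 V-ATPase windows, and in 0 of the 3 windows of the transcription factors. Among the 7 genes called in the comparison of the ages, 6 had a window and 1, Dpp7, held the motif. Matches describe the letters of a window and not a bound site. The windows of 4 genes are printed from 130 bases before to 20 bases after the start, 5′ to 3′ on the strand of the gene, with CACGTG in capitals: Dpp7 as the called gene with the motif, Mcoln1 and Lamp1 as membrane protein genes with more than 1 match in this stretch, and Atp6v0d1 as the V-ATPase gene with the smallest adjusted p-value among those not called.
Dpp7, chr2:25356313-25356462 (minus strand): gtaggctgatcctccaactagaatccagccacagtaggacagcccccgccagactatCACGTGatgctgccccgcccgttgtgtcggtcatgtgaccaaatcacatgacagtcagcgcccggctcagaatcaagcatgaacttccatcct
Mcoln1, chr8:3500389-3500538 (plus strand): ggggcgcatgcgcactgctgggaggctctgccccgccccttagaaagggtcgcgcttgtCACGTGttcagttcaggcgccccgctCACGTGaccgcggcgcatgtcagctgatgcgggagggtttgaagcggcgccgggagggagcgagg
Lamp1, chr8:13159031-13159180 (plus strand): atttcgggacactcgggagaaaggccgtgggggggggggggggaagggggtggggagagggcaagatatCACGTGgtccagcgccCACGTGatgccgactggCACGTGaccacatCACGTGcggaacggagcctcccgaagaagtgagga
Atp6v0d1, chr8:105566045-105566194 (minus strand): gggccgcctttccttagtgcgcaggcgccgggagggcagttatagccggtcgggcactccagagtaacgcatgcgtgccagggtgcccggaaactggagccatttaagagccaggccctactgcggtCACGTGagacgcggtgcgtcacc
The single match of Dpp7 began 73 bases before the start, and that of Atp6v0d1 began 3 bases before it. Lamp1 held 4 matches within 61 bases of the start, and Mcoln1 held 2, at 71 and 45 bases before it.

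Of the 52 tested genes, 6 were lower and 1 was higher in aged macrophages. Lower were the hydrolases Acp5, Dpp7, Hexa and Arsb, the cofactor Npc2 and the V-ATPase subunit Atp6v0d2, and higher was the transcription factor Tfe3. The 6 lower genes made up 11.5% of the 52, while 7.97% of all 11878 tested genes were called lower and 9.73% were called higher. The share called lower was thus near that of all genes. Acp5, Dpp7, Arsb and Atp6v0d2 were over 2-fold lower, which held for 4.2% of all tested genes. In 9 of the 52 genes every aged sample lay below every young sample, against 19% of all genes, and in 4 every aged sample lay above, against 19.2%. RNA was pooled over many cells, so fewer cells of a kind and less RNA per cell cannot be told apart. Without young A, young B, young C, aged A, aged B or aged C in turn, 4, 2, 1, 2, 5 and 1 genes were called lower, so that the count of 6 rested on the full set of samples. Over all tested genes these fits called 2702, 765, 218, 1385, 1502 and 545 genes in either direction, against 2103 with all samples.

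**Figure D1:**
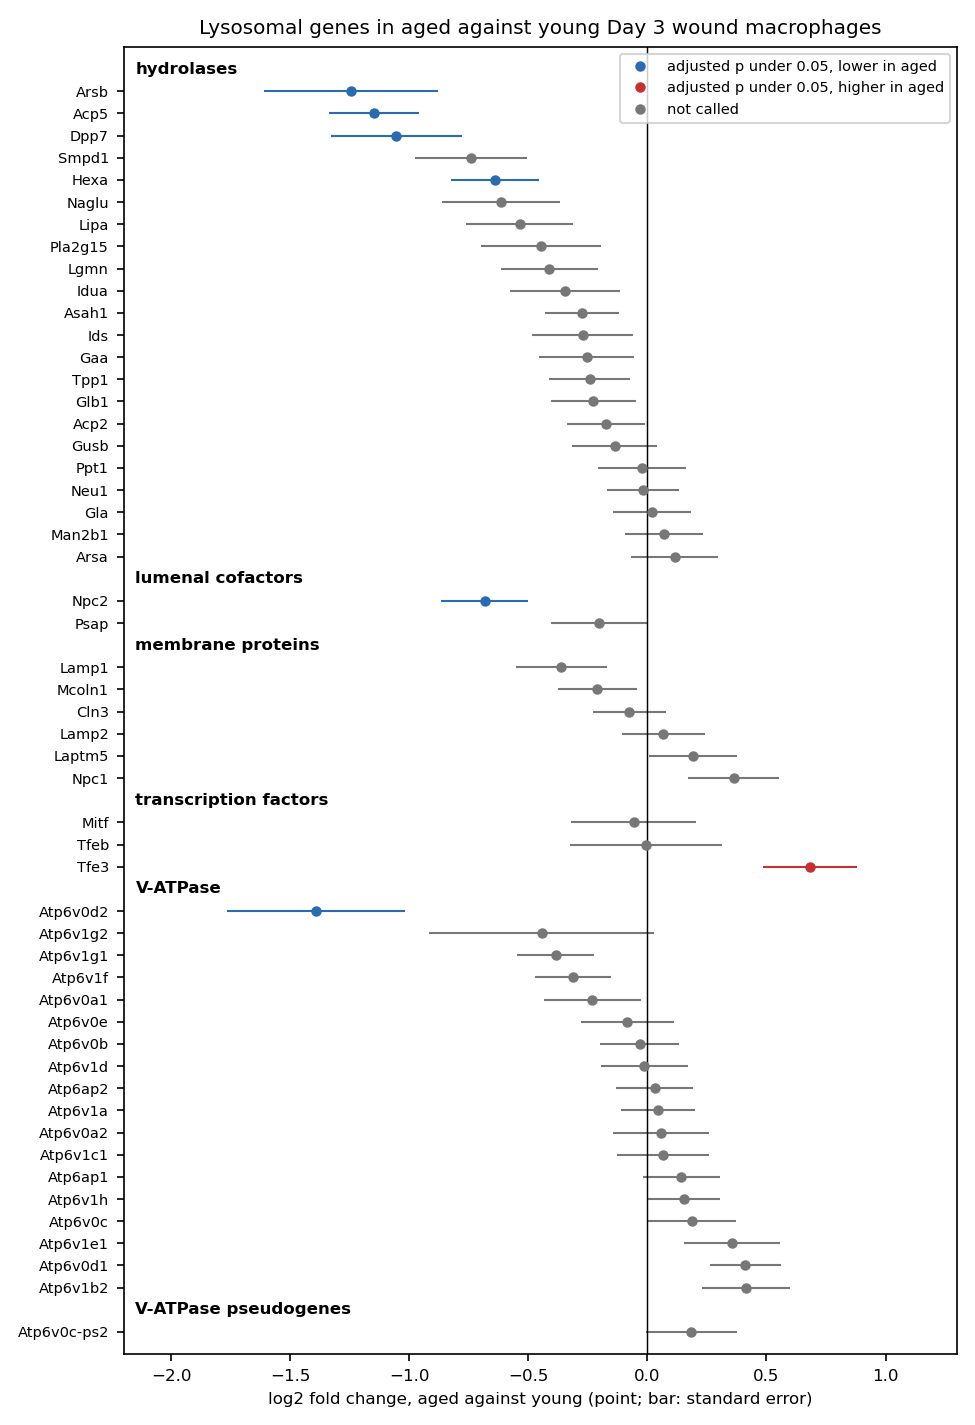
Log2 fold change of aged against young samples (points, horizontal axis) with its standard error (bars) for the 52 tested lysosomal genes, grouped by class; blue marks genes called lower, red genes called higher and grey genes not called. Among the 22 hydrolases 19 points lie left of 0, while those of the V-ATPase and the membrane proteins lie on both sides.

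The hydrolases were the class with the most calls, 4 lower (18.2%, against the 7.97% of all genes) and 0 higher of 22 (edgeR). At an unadjusted p-value under 0.05 there were 7 lower and 0 higher, and DESeq2 and limma-voom called 5 and 7 lower, and 0 higher each. Over all tested genes the share lower was 16.5% at the unadjusted p-value, 8.97% in DESeq2 and 14.4% in limma-voom, and the share higher was 18.1%, 12.2% and 16.3%. The log2 fold change was below 0 for 19 of the 22 (86.4%), against 51.2% of all tested genes. Their median log2 fold change was -0.27, against -0.017 over all tested genes. Every aged sample lay below every young sample in 6 of the 22 (Hexa, Arsb, Smpd1, Asah1, Dpp7 and Acp5), against 19% of all tested genes, and the reverse order was found in 0, against 19.2%. Summed over the 22 genes, the level was 4518, 5404 and 5266 CPM in the young samples and 3701, 4407 and 3879 CPM in the aged samples. The highest aged sum, that of aged B, was below the lowest young sum, that of young A. Lgmn, a protease that cuts after asparagine, is given because it was the most abundant hydrolase and made up a large part of these sums, a choice made after its values were seen. It was at 1593, 2115 and 1897 CPM in young samples, against 1155, 1680.2 and 1380.0 CPM in aged samples. The count of lower hydrolases was 3, 1, 1, 2, 5 and 1 without young A, young B, young C, aged A, aged B and aged C. Over all tested genes these fits called 2702, 765, 218, 1385, 1502 and 545 genes in either direction, against 2103 with all samples.

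Acp5, at chr9:22126727-22135711 on the minus strand (mm10), encodes tartrate-resistant acid phosphatase, an enzyme abundant in osteoclasts and some macrophages. It was measured at 279.6, 219.5 and 344 CPM in young A, B and C, against 123, 127 and 129 CPM in aged A, B and C. The aged values lay within a few CPM of each other and were all below the young values. The level fell 2.22-fold, with a log2 fold change of -1.15 (SE 0.19, adjusted p = 0.00656). It was called in all 6 fits that left out 1 sample, with adjusted p-values from 0.00543 to 0.0446. The other acid phosphatase, Acp2, was not called, with a log2 fold change of -0.17 (SE 0.16, adjusted p = 0.484).

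Dpp7 (chr2:25352276-25356359, minus strand), whose E-box is printed above, encodes a peptidase that removes dipeptides ending in proline or alanine. It was at 33.5, 43.2 and 48.9 CPM in young samples, against 14.0, 29.8 and 16.6 CPM in aged samples. Young and aged values did not overlap, although aged B at 29.8 CPM came near young A at 33.5 CPM. Its level fell 2.08-fold, with a log2 fold change of -1.05 (SE 0.28, adjusted p = 0.0292). The call was lost without young B, young C, aged A or aged C (adjusted p = 0.0839, 0.123, 0.0700 and 0.111). The remaining proteases, Lgmn and the tripeptidyl peptidase Tpp1, had log2 fold changes of -0.41 and -0.24 (adjusted p = 0.177 and 0.341).

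Hexa (chr9:59539540-59565109, plus strand) encodes the alpha subunit of beta-hexosaminidase, which takes a sugar from GM2 ganglioside. It was at 418, 528 and 554 CPM in young samples, against 284, 371 and 308 CPM in aged samples, so the lowest young sample was above the highest aged sample. The fall was 1.56-fold, with a log2 fold change of -0.64 (SE 0.18, adjusted p = 0.0385). Without young B, young C, aged A or aged C the adjusted p-value was 0.106, 0.153, 0.0971 and 0.139. Hexa overlaps Tmem202 on the opposite strand, whose mean was 1.79 CPM against 410.5 CPM for Hexa. Of the other 8 glycosidases 0 were called (edgeR), 1 at an unadjusted p-value under 0.05. Over all tested genes 7.97% were lower and 9.73% higher in edgeR, and 16.5% and 18.1% at the unadjusted p-value. The 1 gene, Naglu, which trims heparan sulfate, had a log2 fold change of -0.62 (adjusted p = 0.107, and 0.0470 without aged A). Limma-voom called Naglu lower (adjusted p = 0.0207), as it did 14.4% of all tested genes. The others lay between -0.35 for Idua and 0.071 for Man2b1. Glb1, Gaa and Gusb, the acid beta-galactosidase, alpha-glucosidase and beta-glucuronidase, had estimates of -0.23, -0.25 and -0.14 and overlapping samples. Gla, Neu1 and Man2b1 also had overlapping young and aged samples and estimates of 0.020, -0.018 and 0.071.

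Arsb (chr13:93771630-93943016, plus strand), the sulfatase that works on dermatan and chondroitin sulfate, was the hydrolase with the largest fold change and the lowest level. It was at 7.80, 4.87 and 3.90 CPM in young samples, against 2.59, 2.87 and 1.54 CPM in aged samples, from 25 to 141 counts in a sample. The aged values were below the young ones, and the estimate was a log2 fold change of -1.25 (SE 0.36, adjusted p = 0.0409), or 2.37-fold. The call was lost in each of the 6 fits that left out 1 sample, with adjusted p = 0.111, 0.0841 and 0.0818 without young A, B and C, and 0.0692, 0.0516 and 0.141 without aged A, B and C. Arsa, the sulfatase of sulfatides, had the highest estimate of the hydrolases. It was at 17.9, 21.5 and 25.1 CPM in young samples, against 22.1, 25.3 and 22.4 CPM in aged samples, which overlap, and was not called, with a log2 fold change of 0.11 (SE 0.18, adjusted p = 0.691). Ids, which removes sulfate from iduronate, was not called either (log2 fold change -0.27, adjusted p = 0.392).

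The 5 lipid hydrolases had estimates below 0, and 0 were called by edgeR, 2 at an unadjusted p-value under 0.05, with 1 called by DESeq2 and 2 by limma-voom, against 7.97%, 16.5%, 8.97% and 14.4% of all tested genes called lower. Smpd1, acid sphingomyelinase, is described because it lay at the threshold, a choice made after its values were seen. It was at 14.8, 16.5 and 12.6 CPM in young samples, against 8.41, 11.0 and 6.79 CPM in aged samples, without overlap, with a log2 fold change of -0.74 (SE 0.23, adjusted p = 0.0524). DESeq2 and limma-voom gave it adjusted p = 0.0386 and 0.0227, and edgeR without aged B gave 0.0391. Lipa, the acid lipase of cholesteryl esters and triglycerides, had a log2 fold change of -0.54 (adjusted p = 0.117, and 0.0412 without aged B). Asah1, acid ceramidase, was lower in every aged than in every young sample, by a log2 fold change of -0.28 (adjusted p = 0.235). Pla2g15, a lysosomal phospholipase, and Ppt1, which removes palmitate from proteins, had estimates of -0.45 and -0.023 (adjusted p = 0.235 and 0.944).

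**Figure D2:**
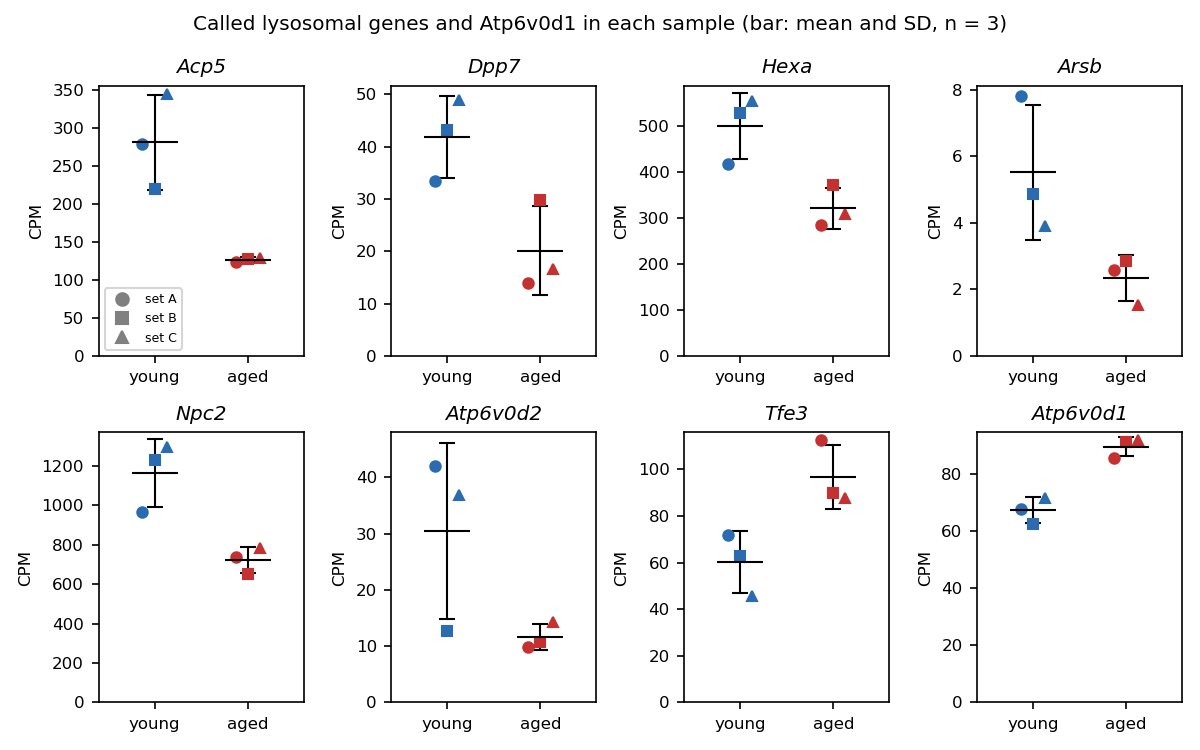
CPM (vertical axes, each from 0) of the 7 called lysosomal genes and of Atp6v0d1 in each young (blue) and aged (red) sample; circles, squares and triangles are sets A, B and C, and bars show the mean and SD (n = 3). Young and aged samples overlap in Atp6v0d2 through young B, and do not overlap in the other 7 genes.

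Both lumenal cofactors were abundant, and 1 of them fell. Npc2 (chr12:84754562-84773152, minus strand) encodes the soluble protein that lifts cholesterol from lumenal membranes and passes it to NPC1. It was at 968, 1228 and 1294 CPM in young samples, against 736, 654 and 784 CPM in aged samples. All aged samples were below all young samples, 1.61-fold on average, with a log2 fold change of -0.68 (SE 0.18, adjusted p = 0.0308). The adjusted p-value was 0.0147 without young A and 0.0953, 0.127, 0.0605, 0.0775 and 0.0904 without young B, young C, aged A, aged B and aged C, so the call held in 1 of the 6 fits. Psap, the precursor of the saposins that present sphingolipids to their hydrolases, was at 3500.2, 3234 and 4075 CPM in young samples, against 3793, 2921 and 2672 CPM in aged samples. Its samples overlapped, aged A being above young A and B, and it was not called, with a log2 fold change of -0.20 (SE 0.20, adjusted p = 0.506).

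Of the 6 membrane proteins, 0 were called in either direction by edgeR, DESeq2 or limma-voom, and 0 had an unadjusted p-value under 0.05. Over all tested genes the shares lower and higher were 7.97% and 9.73% in edgeR and 8.97% and 12.2% in DESeq2. They were 14.4% and 16.3% in limma-voom, and 16.5% and 18.1% at the unadjusted p-value. The median log2 fold change of the 6 membrane proteins was -0.0045, their estimates ran from -0.36 to 0.36, and young and aged samples overlapped in each of them. Summed over the 6, the level was 4120.4, 4793 and 4588 CPM in young and 4585, 4163 and 4208 CPM in aged samples, which overlap too. Lamp1, a main glycoprotein of the lysosomal membrane, had the lowest estimate. It was at 1629, 2239 and 2261 CPM in young samples, against 1503, 1708 and 1557 CPM in aged samples, with a log2 fold change of -0.36 (SE 0.19, adjusted p = 0.206), and aged B lay above young A. Npc1, the membrane partner of Npc2 in cholesterol export, had the highest, at 27.5, 19.9 and 25.7 CPM in young samples, against 26.7, 31.4 and 35.8 CPM in aged samples, with a log2 fold change of 0.36 (SE 0.19, adjusted p = 0.205). Here young A lay above aged A. The estimates of Npc2 and Npc1 thus had opposite signs, and 1 of the pair passed the test. Lamp2, a second glycoprotein that also serves chaperone-mediated autophagy, was at 582 ± 79.9 CPM in young samples, against 610.0 ± 47.1 CPM in aged samples (SD, n = 3), a log2 fold change of 0.067. The cation channel Mcoln1 (-0.21), Cln3 (-0.076) and Laptm5 (0.19), a protein enriched in blood cells, had log2 fold changes with adjusted p-values of 0.394, 0.760 and 0.493.

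Among the 18 tested V-ATPase genes 1, Atp6v0d2, was lower (5.56%, against 7.97% of all tested genes) and 0 were higher (against 9.73%; edgeR). Unadjusted p-values under 0.05 were found for 2 lower and 2 higher genes, DESeq2 called 1 lower and 0 higher, and limma-voom 2 lower and 1 higher, against 16.5% and 18.1%, 8.97% and 12.2%, and 14.4% and 16.3% of all tested genes. Estimates were below 0 for 44.4% of the 18, with a median log2 fold change of 0.038, whose sign turned under upper-quartile scaling (-0.04) and without young B (-0.06). Every aged sample lay below every young sample in 2 genes and above in 3, against 19% and 19.2% of all tested genes. The summed level was 7325, 5853 and 7195 CPM in young and 7784, 7017 and 7221 CPM in aged samples. Young B had the lowest sum, and the other 5 lay between 7017 and 7784 CPM. The count of lower V-ATPase genes was 1 without young B and 0 without any 1 of the other 5 samples, to be read against the counts over all genes given with the hydrolases.

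In the V1 sector 0 of 9 tested genes were called by edgeR, 1 gene each way had an unadjusted p-value under 0.05, DESeq2 called 0 and limma-voom 1 lower, to be read against the same shares of all tested genes. Atp6v1b2, a subunit B of the ring that binds ATP, had the highest estimate. It was at 321, 224 and 302 CPM in young samples, against 339.8, 389.6 and 399 CPM in aged samples, each aged sample above each young one, with a log2 fold change of 0.41 (SE 0.18, adjusted p = 0.137). Atp6v1a, the catalytic subunit A of that ring, was at 219 ± 1.46 CPM in young samples, against 226 ± 21.9 CPM in aged samples (SD, n = 3), a log2 fold change of 0.046 (adjusted p = 0.862). Atp6v1g2, an isoform of the stalk best known from neurons, had the lowest estimate and was scarce. It was at 1.33, 1.76 and 1.32 CPM in young samples, against 1.75, 0.764 and 0.741 CPM in aged samples, from 12 to 30 counts, with a log2 fold change of -0.44 (SE 0.47, adjusted p = 0.536). The common isoform Atp6v1g1 was the gene called lower by limma-voom, chosen here after its values were seen. It was at 319, 290.2 and 368 CPM in young samples, against 259.7, 239.5 and 249 CPM in aged samples, without overlap, with a log2 fold change of -0.39 (SE 0.16, adjusted p = 0.119) in edgeR and adjusted p = 0.0285 in limma-voom. Atp6v1f also had each aged sample below each young one (-0.31, adjusted p = 0.197), and Atp6v1h, a regulatory subunit, each above (0.15, adjusted p = 0.505). The other tested members, Atp6v1c1, Atp6v1d and Atp6v1e1, had estimates of 0.067, -0.013 and 0.36 and overlapping samples.

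The V0 sector held the called gene. Atp6v0d2 (chr4:19876841-19922605, minus strand) encodes an isoform of subunit d known from osteoclasts, kidney and some macrophages. It was at 41.9, 12.7 and 36.9 CPM in young samples, against 9.88, 10.7 and 14.3 CPM in aged samples. Young A and young C were well above all aged samples, but young B was below aged C, so the groups overlapped. Its mean was 2.62-fold lower in aged samples, with a log2 fold change of -1.39 (SE 0.37, adjusted p = 0.0315). The adjusted p-value was 0.00842 without young B and 0.0614, 0.127, 0.0766, 0.0660 and 0.0684 without young A, young C, aged A, aged B and aged C. The common isoform, Atp6v0d1, had the highest estimate in V0. It was at 68.0, 62.5 and 71.8 CPM in young samples, against 85.7, 91.4 and 91.9 CPM in aged samples, each aged sample above each young one, but the test was not passed, with a log2 fold change of 0.41 (SE 0.15, adjusted p = 0.0774). limma-voom gave adjusted p = 0.0421.

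Atp6v0c, the proteolipid of the proton-carrying ring, is given because it was the most abundant V-ATPase gene, a choice made after its values were seen. It was at 3086, 2385 and 2959 CPM in young samples, against 3483, 3026 and 3080.1 CPM in aged samples, and was not called (0.19, adjusted p = 0.508). The processed pseudogene Atp6v0c-ps2 held 13.9% to 15.5% of the counts of the pair in a sample. As a near-identical copy it may share reads with Atp6v0c, so the split between them is uncertain. Its own estimate was 0.19 (adjusted p = 0.526). Atp6v0a1, Atp6v0a2, Atp6v0b and Atp6v0e had estimates of -0.23, 0.056, -0.032 and -0.084, with adjusted p-values from 0.453 to 0.912. Neither accessory protein was called. Atp6ap1, which helps to assemble the pump, was at 598, 635 and 685 CPM in young samples, against 767, 666 and 685 CPM in aged samples, with a log2 fold change of 0.14 (SE 0.16, adjusted p = 0.565). Atp6ap2, also called the prorenin receptor, was at 423, 353 and 436 CPM in young samples, against 413, 402 and 424 CPM in aged samples, with a log2 fold change of 0.031 (SE 0.16, adjusted p = 0.911). In both genes the young and aged samples overlapped.

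Isoform use was described as the share of a subunit family in CPM per kb of transcript, since a level can be compared between genes only per length. Atp6v0d2 made up 28.4, 11.6 and 24.8% of subunit d in young A, B and C and 6.88, 6.99 and 9.06% in aged A, B and C. Each aged share was below each young share, with means of 21.6 ± 8.85% and 7.64 ± 1.23% (SD, n = 3), a difference of -13.9 percentage points. An exact two-sided permutation test gave p = 0.1, the smallest value that 3 against 3 samples can give. Subunit a was carried mostly by Tcirg1, which encodes isoform a3 of osteoclast and lysosomal pumps and was added because the symbol pattern does not take it. Its share was 82.0, 75.6 and 75.6% in young and 85.9, 70.5 and 74.9% in aged samples, with overlap (exact permutation test, p = 0.8). Tcirg1 itself was at 143, 147 and 120.0 CPM in young samples, against 191, 99.9 and 104 CPM in aged samples, with a log2 fold change of -0.057 (SE 0.25, adjusted p = 0.894). Stalk subunit G was nearly all Atp6v1g1, at 99.5% to 99.8% of the family in every sample. Atp6v0e2 had at most 5 counts in a sample beside 5010 to 8190 for Atp6v0e. Its share of subunit e was 0.0575, 0.0940 and 0.119% in young and 0, 0.0296 and 0.0248% in aged samples. These shares did not overlap either (exact permutation test, p = 0.1), though they rest on very few counts. Atp6v1c2 had 18 counts in aged B and 0 in the other samples. Atp6v0a4, Atp6v1b1, Atp6v1e2 and Atp6v1g3 were not listed in the table, which holds genes with a total of at least 10 counts.

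**Figure D3:**
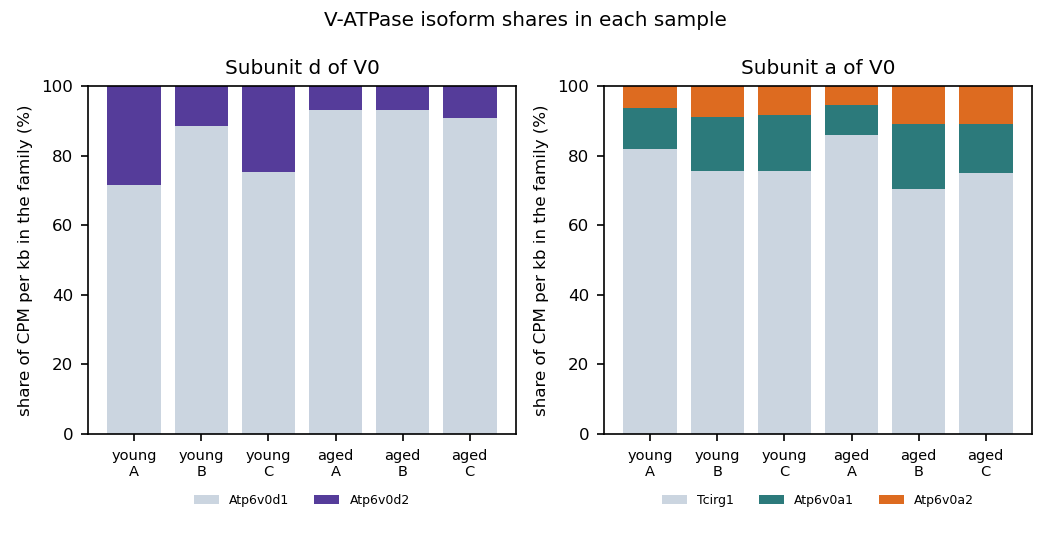
Share of each isoform in the summed CPM per kb (vertical axis, percent) of V0 subunit d (left) and subunit a (right) in each sample. Atp6v0d2 takes 28.4%, 11.6% and 24.8% of subunit d in the young samples and 6.88% to 9.06% in the aged samples, while the share of Tcirg1 overlaps between the ages.

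On the scale of CPM per kb, with the length of the principal GENCODE transcript, Atp6v0c was highest at 2376 in young and 2702 in aged samples (means), followed among genes other than the pseudogene by Psap at 1356 and 1177. Lgmn (939 and 706), Lamp1 (917 and 713) and Laptm5 (669 and 764) came next. Of the called genes, Npc2 stood at 353 and 219.6, Hexa at 250.5 and 161, and Acp5 at 194 and 87.6 CPM per kb. Arsb stood at 1.37 and 0.578, and Atp6v1g2, which was not called, at 0.962 and 0.710. Atp6v1g2 was thus the lowest tested gene in young samples, and Arsb in aged samples. Called genes were thus found from high to low levels. These levels depend on the transcript chosen for the length.

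Tfe3 was the transcription factor that rose. Tfe3 (chrX:7762560-7775202, plus strand), which binds the same E-box as Tfeb, was at 71.9, 62.9 and 45.8 CPM in young samples, against 113, 89.8 and 87.9 CPM in aged samples. All aged samples were above all young samples, 1.61-fold on average, with a log2 fold change of 0.68 (SE 0.20, adjusted p = 0.0396). The call held without young A (adjusted p = 0.0201) and was lost without young B, young C, aged A, aged B or aged C (0.0953, 0.158, 0.102, 0.0565 and 0.0874), and with upper-quartile scaling (0.0607). Tfeb, the best known regulator of lysosomal genes, was at 9.57, 22.2 and 12.6 CPM in young samples, against 10.5, 18.5 and 15.3 CPM in aged samples, with a log2 fold change of -0.0048 (SE 0.32, adjusted p = 0.994). Mitf was at 8.85, 6.98 and 12.4 CPM in young samples, against 8.48, 10.9 and 7.66 CPM in aged samples, with a log2 fold change of -0.058 (SE 0.26, adjusted p = 0.898). In both the spread within an age was larger than the difference between the ages.

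Samples of the same age also differed from each other, and hydrolases and V-ATPase genes had their lowest values in different samples. Among the young samples, young A was the lowest for 15 of 22 hydrolases (68.2%), against 35.9% of all tested genes, while young B was the lowest for 13 of 18 V-ATPase genes (72.2%), against 37.9% of all genes. Among the aged samples, aged A was the lowest for 11 of the 22 hydrolases (50.0%, against 37.1% of all genes). Aged B was the highest for 13 hydrolases (59.1%, against 35.5%) and the lowest for 10 V-ATPase genes (55.6%, against 34.3%). These counts are a description, since members of a class are not replicates.

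**Figure D4:**
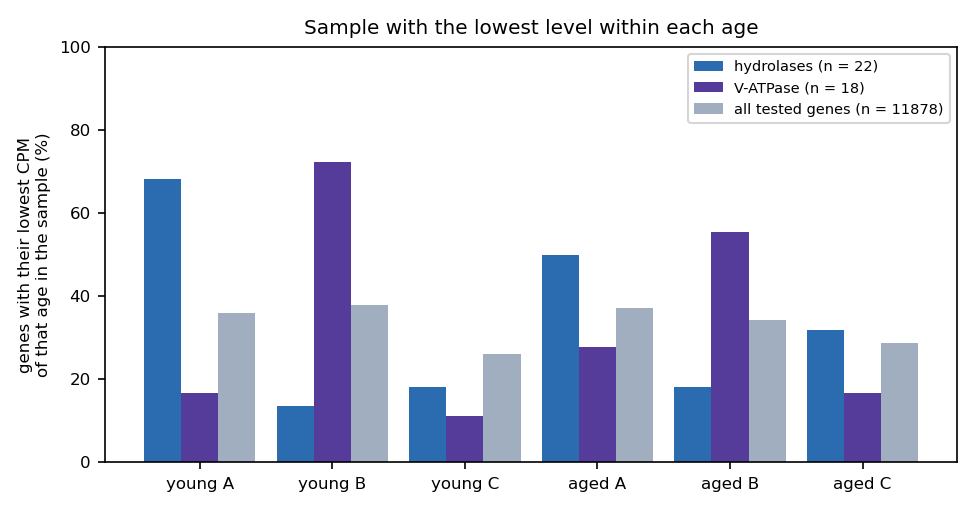
Percentage of genes (vertical axis) that have their lowest CPM of that age in the sample named on the horizontal axis, for the 22 hydrolases (blue), the 18 tested V-ATPase genes (purple) and all 11878 tested genes (grey). The blue bar is tallest in young A (68.2%) and the purple bar in young B (72.2%).

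Further lysosomal genes were read from lists of the same fit. Of 28 other lysosomal hydrolases, 5 were lower and 0 higher (edgeR; at an unadjusted p-value under 0.05, 9 lower and 1 higher; DESeq2 6 and 0, limma-voom 9 and 0), and their median log2 fold change was -0.21. The edgeR count is to be read against 7.97% lower and 9.73% higher over all tested genes, as are those of the lists that follow, and the unadjusted, DESeq2 and limma-voom counts against the shares over all genes given with the hydrolases. Sgsh, a sulfatase of heparan sulfate, had the lowest, at 8.41, 13.9 and 9.18 CPM in young samples, against 3.36, 4.78 and 2.78 CPM in aged samples, with a log2 fold change of -1.53 (SE 0.30, adjusted p = 0.0121). Its young and aged samples did not overlap. Aga, which cuts the sugar link of asparagine, and Naaa, an acid amidase, had log2 fold changes of -0.98 and -0.83 (adjusted p = 0.0122 and 0.0122). The nuclease Dnase2a was called too (-0.57, adjusted p = 0.0391), whose call was lost in each of the 6 fits that left out 1 sample (0.0508 without aged A to 0.160 without aged C). Without young C the adjusted p-values of Sgsh, Aga and Naaa were 0.0538, 0.0701 and 0.0641, and without aged C those of Sgsh and Aga were 0.0534 and 0.0543.

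Of 30 tested other proteins of the lysosomal membrane, 4 were lower and 2 higher (8 and 3 at an unadjusted p-value under 0.05; DESeq2 5 and 2, limma-voom 8 and 2), with a median log2 fold change of -0.053. Gpnmb, a glycoprotein of pigment cells and macrophages, fell from 182, 363 and 356 CPM to 126, 106 and 87.5 CPM, with a log2 fold change of -1.50 (SE 0.27, adjusted p = 0.00846). Mfsd12, which is needed for cysteine import, and the tetraspanin Cd63 had log2 fold changes of -1.05 and -0.93 (adjusted p = 0.0194 and 0.0141). Slc15a3, a peptide and histidine transporter, rose from 88.2, 58.1 and 63.0 CPM to 150.1, 135 and 146 CPM, with a log2 fold change of 1.04 (SE 0.19, adjusted p = 0.00884). Lamtor2, a part of the mTORC1 platform, was the fourth lower gene (-0.55, adjusted p = 0.0331) and the sialomucin Cd164 the second higher one (0.76, adjusted p = 0.0142). Lamtor2 kept its call in 1 of the 6 fits, that without young A, and Cd164 lost it without young C (0.0838) and aged C (0.0644). Young and aged samples did not overlap in Gpnmb, Mfsd12, Cd63, Lamtor2, Slc15a3 or Cd164. Without young C, the adjusted p-values of Gpnmb, Mfsd12, Cd63 and Slc15a3 were 0.0547, 0.0762, 0.0704 and 0.0627, and without aged C those of Mfsd12 and Cd63 were 0.0639 and 0.0623.

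Of 18 genes for sorting of enzymes to the lysosome, 1 was lower and 1 higher: the adaptor Gga2 (-0.67, adjusted p = 0.0430) and Ap1g1, a subunit of the AP-1 coat (0.66, adjusted p = 0.0344). At an unadjusted p-value under 0.05 the list had 4 lower and 2 higher, and DESeq2 and limma-voom called 2 and 5 lower and 1 higher each. Gga2 was called only in the fit without aged B among the 6 fits, and Ap1g1 was not called without young B, young C, aged A or aged C (adjusted p = 0.106, 0.132, 0.0619 and 0.131). Of 16 genes around TFEB, TFE3 and mTORC1, 2 were higher and 0 lower (at an unadjusted p-value under 0.05, 5 and 0; DESeq2 3 and 0; limma-voom 5 and 0). Tfec, the fourth factor of the Tfeb family, rose from 13.9, 18.4 and 15.3 CPM to 30.0, 35.5 and 27.9 CPM, with a log2 fold change of 0.97 (SE 0.19, adjusted p = 0.0111). Fnip1, a partner of folliculin, rose from 18.1, 10.3 and 15.7 CPM to 29.1, 26.0 and 29.2 CPM, with a log2 fold change of 0.94 (SE 0.22, adjusted p = 0.0206). Without young C the adjusted p-values of Tfec and Fnip1 were 0.0688 and 0.0838, and that of Fnip1 was 0.0528 without young B and 0.0721 without aged C. Of 10 genes for assembly of the V-ATPase, 0 were called by edgeR (2 lower and 2 higher at an unadjusted p-value under 0.05; DESeq2 0 lower and 1 higher, limma-voom 1 and 2). The 111 tested genes of these lists and of the osteoclast list included 11 lower and 5 higher. Without young C they were 1 and 0, without aged C 3 and 2, without young A 17 and 10, and without young B 8 and 3. The counts of these fits over all genes are given with the hydrolases.

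Markers of macrophages and of other cell types were read from the same fit. Their edgeR counts are to be read against 7.97% lower and 9.73% higher over all tested genes. Counts from the other tests are to be read against the shares given with the hydrolases. Of the macrophage list, Adgre1, the gene of F4/80, and Cx3cr1, C1qa, C1qb and C1qc were lower and Itgam was higher (6 called of 15; Adgre1 in 2 of the 6 fits that left out 1 sample, those without young A and without aged B), and the summed level was 33856 to 48976 CPM in young and 24094 to 28240.4 CPM in aged samples. Most of this sum was Lyz2, at 29834 ± 7889.8 CPM in young samples, against 18621 ± 2596 CPM in aged samples (SD, n = 3), which was not called by edgeR (adjusted p = 0.0753). DESeq2 and limma-voom called Lyz2 lower (adjusted p = 0.0193 and 0.00912). Of 13 tested neutrophil markers 4 were higher (Retnlg, Cxcr2, Lcn2 and Cd177), with sums of 579 to 1028 and 791 to 1434 CPM, with Camp and Mpo not listed and Elane at 0 in most samples. Of the 6 fits that left out 1 sample, Cd177 was called in 5 (all but that without young C), Cxcr2 in 2 (without young B and without aged B), and Retnlg and Lcn2 in 1 (without aged B). Fibroblast markers summed to 325 to 396 and 590.0 to 884 CPM (1 of 7 higher, Fn1, which macrophages also express and which made up most of the sums). Without Fn1 the sums were 43.4, 36.8 and 62.4 CPM in young A, B and C and 188 and 49.5 CPM in aged B and C, with aged A lower than every other sample, so that aged B stood apart. Endothelial markers summed to 12.3 to 13.1 and 27.0 to 32.2 CPM, most of it Pecam1, which leukocytes also express and which was the 1 called of 4 tested. The other endothelial markers were scarce and not called or not tested, with higher means in aged samples for some (Egfl7, Tek) and lower means for others (Kdr, Vwf, Cdh5, Cldn5). Erythroid transcripts summed to 153 to 490.1 and 41.8 to 152 CPM (4 of 5 lower). Among the 6 fits that left out 1 sample, Hba-a1 and Hba-a2 were called in 3 each, and Hbb-bs and Hbb-bt in 2 each. DESeq2 called Hba-a1, Hba-a2 and Alas2 lower, but not Hbb-bs or Hbb-bt (adjusted p = 0.0556 and 0.0747). Keratinocyte markers were at 2.05 to 3.48 CPM in young samples and at 9.95, 191 and 3.77 CPM in aged A, B and C, so that aged B stood apart here too. Of 2 tested, Krt14 and Sfn, 2 were higher in edgeR, 1 in DESeq2 and 0 in limma-voom. In the 6 fits that left out 1 sample, Krt14 was called in 4 and Sfn in 2. Lymphocyte markers summed to 7.33 to 16.1 and 4.39 to 6.73 CPM (1 of 3 lower; Cd8a and Ncr1 were not listed) and mast cell and basophil markers to 18.7 to 68.1 CPM in young samples and 53.7, 1.02 and 0.741 CPM in aged A, B and C, aged A being within the young range and the other two near 0 (0 of 5 called by edgeR or DESeq2, 0 at an unadjusted p-value under 0.05, and 4 lower by limma-voom). Their part in the lysosomal results was not tested. Without aged B, Acp5, Dpp7 and Hexa were called (adjusted p = 0.0130, 0.00598 and 0.0403), as were Smpd1 and Lipa, while Arsb, Npc2, Atp6v0d2 and Tfe3 were not (0.0516, 0.0775, 0.0660 and 0.0565).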

How the data were processed

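Bulk RNA-sequencing of 3 young and 3 aged samples of sorted Day 3 wound macrophages was analysed, grouped by the age in the labels. The authors aligned reads with STAR 2.7.3a to mm10 and quantified Ensembl transcripts (release 102) in Partek Flow, and the expected counts per gene that the authors deposited, without normalisation, were used. A second table with the normalised values, p-values and fold changes of the authors' DESeq2 comparison was not used. From the expected counts, of which 30.7% to 34.0% per sample were not whole, rounded counts were tested in R 4.3.3 with edgeR 4.0.16 (TMM, filterByExpr by age, quasi-likelihood test of aged against young, Benjamini-Hochberg adjustment over 11878 genes), after the script had been tested on simulated data. The planned design assumed whole counts. The SE is the absolute log2 fold change divided by the square root of the F statistic. Intervals were not computed, and 1 count was worth up to 0.0701 CPM. DESeq2 1.42.0, limma-voom (limma 3.58.1) with sample quality weights, other scalings and filters, the set letter as a replicate block and leaving out each sample were alternatives. Whether counting used the strand is not given in the sources used here. Gene ends in mm10 are the deposited ends minus 1.

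The genes and lists were chosen with earlier results of these data known. Full values are given for called genes, for the highest and lowest estimate of each class and for the 3 transcription factors; of the further lists, for at most 4 called genes each and Tcirg1. Genes named for another reason are given by their estimates or said to be chosen once values were seen, and some genes of the lists are not reported here by name. Tables and plots used pandas 2.3.3 and matplotlib 3.10.9 in Python 3.11.15.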

Additional observations from a re-analysis of the deposited data

How the results depend on the processing

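No named gene changed sign with a call under any alternative. Limma-voom with sample quality weights called more genes: 10 of the lysosomal genes lower and 2 higher (6 and 1 in edgeR), 7 hydrolases lower (4), 2 V-ATPase genes lower and 1 higher (1 and 0), and 25 genes of the further lists lower and 11 higher (11 and 5). Over all genes it called 3646, against 2103 in edgeR. Upper-quartile scaling left 0 lysosomal genes higher, and an adjusted p-value under 0.1 gave 2 higher, 1 of them in the V-ATPase. The share of all tested genes at that looser threshold is not given here, so this count cannot be set against it. Leaving out each sample in turn gave 1 to 5 lysosomal genes lower and 0 to 1 higher, 1 to 5 hydrolases lower, 0 to 1 V-ATPase genes lower, and 1 to 17 genes of the further lists lower and 0 to 10 higher. These fits had 1 sample fewer, and over all genes they called from 218 (without young C) to 2702 (without young A). Counts for the membrane proteins were 0 under every alternative. The labels do not say whether the set letters pair the samples. Deviations of same-lettered samples correlated at 0.18, -0.02 and 0.11 for A, B and C. Those of young and aged samples with different letters correlated at -0.22 to 0.14. Such small values from so few samples cannot decide whether the letters pair them. With the letter as a replicate block, 8 lysosomal genes were lower and 1 higher, 6 hydrolases were lower and 2114 genes were called in all. The median of all genes moved by at most -0.07 (upper quartile), and the V-ATPase median, 0.038, went to -0.04 under that scaling and to -0.06 without young B. The Atp6v0d2 share of subunit d differed by -10.5 to -18.9 percentage points without 1 sample and by -18.2 without division by length. The Tcirg1 share differed by -5.04 to 2.66 points. The hydrolase median stayed between -0.37 and -0.23. Atp6v0e2 and Atp6v1c2, with at most 5 and 18 counts in a sample, were too scarce to be tested.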

Other observations

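Acp5, Atp6v0d2 and Tcirg1 are also known from osteoclasts and multinucleated giant cells, and a list of such genes was read from the same edgeR fit. Of 9 tested genes 1 was lower and 0 were higher. At an unadjusted p-value under 0.05, 2 were lower and 0 higher, and DESeq2 called 1 lower and 0 higher. Limma-voom called 2 lower, Ctsk and Mmp9, and 1 higher, Ocstamp. Over all tested genes the shares lower and higher were 7.97% and 9.73% in edgeR and 8.97% and 12.2% in DESeq2. They were 14.4% and 16.3% in limma-voom, and 16.5% and 18.1% at the unadjusted p-value. The gene called lower by edgeR was Ctsk, which encodes cathepsin K, a collagen-cutting protease of the lysosome. It was at 137, 62.5 and 154 CPM in young samples, against 26.2, 31.5 and 25.0 CPM in aged samples, and every aged sample was below every young one. Its level fell 4.28-fold, with a log2 fold change of -2.10 (SE 0.30, adjusted p = 0.00379) (edgeR quasi-likelihood test, Benjamini-Hochberg adjustment), and it was called in all 6 fits that left out 1 sample (adjusted p = 0.00353 to 0.0295). The other listed genes were not called: Ocstamp, a fusion protein, had an estimate of 0.88 (adjusted p = 0.176), the fusion protein Dcstamp -0.33 (0.750), the transcription factor Nfatc1 -0.41 (0.380), the receptor Tnfrsf11a -0.38 (0.194) and the protease Mmp9 -0.54 (0.143). Itgb3, Car2 and Src stayed under 5 CPM in every sample, and Calcr, Oscar and Siglec15 were not listed.

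Among the young samples, young B was the lowest for Ctsk, Acp5 and Atp6v0d2, at 62.5, 219.5 and 12.7 CPM. Of the 9 tested genes of the list, 8 (all but Mmp9, lowest in young A) had their lowest young value in young B, as did 37.9% of all tested genes, while Tcirg1 was highest in young B among the young samples. These genes were singled out after their values were seen, and what sets young B apart was not tested.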
